A study of Mus musculus with 2 samples.

Results

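The subject is a group of macrophages from the testis of 2-month-old mice that carried the transcripts of Fcrls, Ccl3 and Ccl4 and little of the antigen presentation genes H2-Aa and Cd74 or of the mannose receptor gene Mrc1. A cell was taken as a macrophage where the complement genes C1qa, C1qb and C1qc, the growth factor receptor gene Csf1r and the F4/80 gene Adgre1 made up 0.5% or more of its counts and the Leydig cell genes Cyp17a1, Ptgds, Hsd3b6 and Star less than 1%. It entered the group where its summed counts of Fcrls, Ccl3 and Ccl4 were above its summed counts of H2-Aa, Cd74 and Mrc1. The rule found 78 of 2770 cells of the 2-month library (2.82%, exact binomial 95% interval 2.23 to 3.50%), out of 9594 cells in the whole series. The other 42 macrophages of the same library (1.52%, 1.09 to 2.04%) served for comparison. These values chose the cells, so every contrast between the 78 and the 42 cells is a description and no test was made on it.

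The study profiled testicular tissue of mice aged 2 and 24 months by single-cell RNA sequencing on the BD Rhapsody system, in which cells settle in microwells and their polyadenylated RNA is caught on barcoded beads. After the tunica had been stripped off, the tissue was cut up, treated with accutase and strained. The labels call the cells stroma cells and give no strain, genotype or treatment. There was 1 library per age, the number of mice behind each is not given in the sources used here, and age, library and depth cannot be told apart. Cells outside the macrophage limits and with less than 1% of Leydig genes made up 54.4% of the 2-month and 87.7% of the 24-month cells. Of the cell indices, 35 occurred in both tables, 2 of them among the 78 cells and 1 among the other macrophages.

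Testicular macrophages lie in the interstitium beside the Leydig cells and around the seminiferous tubules, where they take up debris, exchange signals with the steroid-making cells and help to keep the germ cells from immune attack. Textbook accounts separate an interstitial kind with high CSF1R and mannose receptor from a peritubular kind with high MHC class II. Fcrls encodes an Fc receptor-like scavenger receptor known mainly from microglia, the macrophages of the brain. Ccl3 and Ccl4 encode the chemokines MIP-1alpha and MIP-1beta, which attract leukocytes and are induced in macrophages within minutes to hours of stimulation or tissue dissociation.

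The promoters of Fcrls and Ccl3, from the rule, and of Slc13a3, from the genes it did not use, are shown from RefSeq (build GRCm38.p6) because the 78 cells held most counts of all 3 genes in the 2-month table (77.3%, 72.8% and 88.2%). Each runs 5′ to 3′ on the strand of the gene from 250 bases before to 50 bases after the RefSeq start site, and capitals mark GAGGAA, a core of the sites bound by the myeloid factor PU.1, on either strand.
Fcrls, chr3:87263475-87263774, minus strand: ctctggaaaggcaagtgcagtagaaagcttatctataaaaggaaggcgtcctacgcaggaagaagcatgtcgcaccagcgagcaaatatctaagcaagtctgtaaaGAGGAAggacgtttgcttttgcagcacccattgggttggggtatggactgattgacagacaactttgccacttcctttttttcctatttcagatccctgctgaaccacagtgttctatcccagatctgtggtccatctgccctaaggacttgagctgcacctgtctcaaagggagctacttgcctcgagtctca
Ccl3, chr11:83649329-83649628, minus strand: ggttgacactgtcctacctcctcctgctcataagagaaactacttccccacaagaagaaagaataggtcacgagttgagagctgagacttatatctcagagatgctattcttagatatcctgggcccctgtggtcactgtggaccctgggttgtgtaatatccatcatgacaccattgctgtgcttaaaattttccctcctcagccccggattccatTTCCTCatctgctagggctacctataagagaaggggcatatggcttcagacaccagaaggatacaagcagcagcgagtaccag
Slc13a3, chr2:165473148-165473447, minus strand: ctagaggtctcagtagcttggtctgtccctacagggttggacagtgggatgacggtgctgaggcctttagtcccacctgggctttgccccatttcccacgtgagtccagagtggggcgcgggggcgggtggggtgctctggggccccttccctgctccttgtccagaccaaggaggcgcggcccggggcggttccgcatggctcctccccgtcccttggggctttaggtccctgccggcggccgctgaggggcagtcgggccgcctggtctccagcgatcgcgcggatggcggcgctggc
GAGGAA began 144 bases before the RefSeq start site of Fcrls, and its complement began 33 bases before that of Ccl3. GENCODE M21 starts Fcrls 214 bases and Slc13a3 33 bases further upstream than RefSeq and Ccl3 23 bases further downstream, so by GENCODE the match in Fcrls lies inside the gene, 70 bases after its start. It was not found in the window of Slc13a3. The same letters occurred on either strand in 28.28% of all 32851 promoters of this length, so a match is common. TATAAA, the core of the TATA box, lay 217 bases before the RefSeq start of Fcrls and in 13.62% of all promoters, and TGANTCA, the AP-1 site, was in none of the 3 windows and in 7.808% of all.

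The 78 cells were separated from the other macrophages by wide margins in most cases. Fcrls, Ccl3 and Ccl4 together ranged from 2 to 127 counts per cell with a median of 40.5, against 0 to 9 with a median of 3 in the other macrophages. H2-Aa, Cd74 and Mrc1 together were at 0 in 71 of the 78 cells, while the other macrophages held 3 to 341 counts with a median of 13.5. The closest cells inside the rule had 15 against 13, 2 against 0 and 10 against 5 counts, and the closest outside it had 3 against 3, 6 against 8 and 7 against 9. The macrophage gene share of the cells nearest to the 0.5% limit was 0.515%, 0.525% and 0.578% inside and 0.462%, 0.448% and 0.427% outside. In 1 of the 78 cells, with a total of 8470, 112 counts of the first 3 genes stood beside 65 of the opposing 3.

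**Figure D1:**
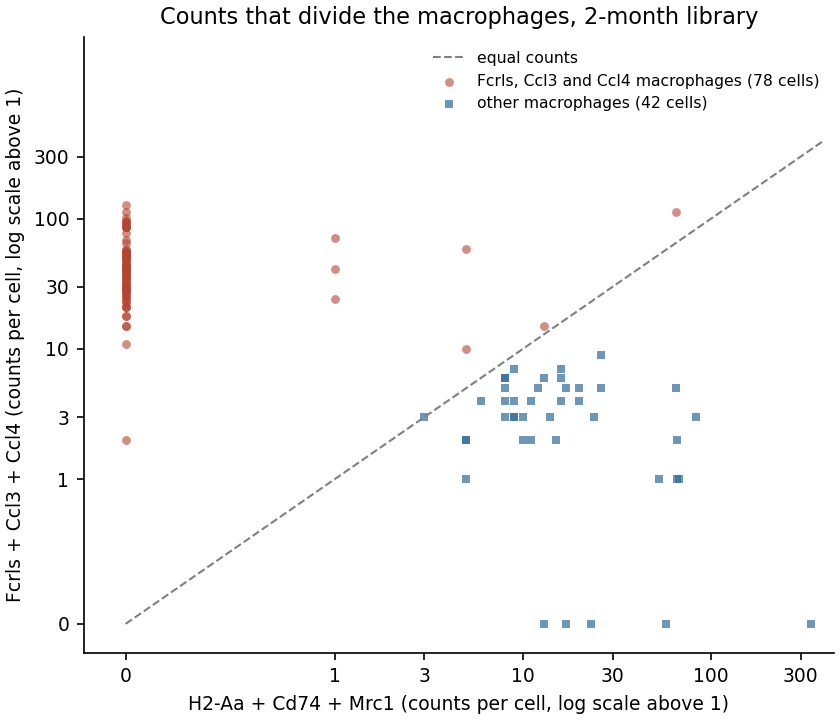
Counts per cell of Fcrls, Ccl3 and Ccl4 summed (vertical axis) against H2-Aa, Cd74 and Mrc1 summed (horizontal axis) in the 120 macrophages of the 2-month library, both axes logarithmic above 1 and the dashed line at equal counts. Of the 78 cells above the line, 71 sit at 0 on the horizontal axis, and the 42 other macrophages lie on or below the line.

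Fcrls was present in all 78 cells, with 1, 21 and 59 counts as the lowest, median and highest, and in the other macrophages it ran from 0 to 7 with a median of 3. Summed over cells, its level was 3759 CPM, counts per 1000000 of the summed counts (exact Poisson 95% interval 3580.4 to 3944), against 581 CPM (481 to 695), a ratio of 6.47 (5.37 to 7.86). These and all later intervals cover counting error only. By Fcrls alone, 77 of the 78 cells still passed the comparison with H2-Aa, Cd74 and Mrc1. The gene lies on chromosome 3 at 87250758 to 87263738, minus strand, in GENCODE M21 on GRCm38.

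Ccl3 and Ccl4, neighbours on chromosome 11 (83647844 to 83649355 on the minus strand and 83662584 to 83664683 on the plus strand), were less even. Ccl3 ran from 0 to 45 counts per cell with a median of 6.5 among the 78 cells, and from 0 to 6 with a median of 0 in the others. Ccl4 ran from 0 to 64 with a median of 11.5, and the 42 other macrophages held 1 count in all. The summed levels were 1856 against 103 CPM for Ccl3 (ratio 18.1, 11.8 to 29.4) and 2579 against 4.88 CPM for Ccl4 (ratio 528, 94.6 to 20884). All 3 genes were counted in 52 of the 78 cells (66.7%, 55.1 to 76.9%), while 9 had Ccl3 without Ccl4, 6 had Ccl4 without Ccl3, and 11 had Fcrls and neither chemokine. Some members thus lacked the chemokine transcripts at this depth, and none lacked Fcrls.

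Cd52 and Adgre1 did not enter the comparison of the 2 sums, but they are among the 5 markers that define this group. Their higher levels in the 78 cells are thus a description and no independent check. Cd52, which encodes a small anchored glycoprotein of leukocytes, reached 0, 18 and 47 counts (lowest, median, highest) per cell in the 78 cells and 0, 0 and 13 in the others, with summed levels of 3486 and 137 CPM (ratio 25.5, 17.6 to 38.5). Adgre1, part of the macrophage limit, reached 0, 10 and 22 against 1, 2 and 6, with 1849 and 542 CPM (ratio 3.41, 2.80 to 4.20). The ranges of both genes overlapped between the groups.

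The rule itself asked for genes of the C1q complex, Csf1r and Adgre1, so their presence is no check of the label. C1qb and C1qc, subunits of the complement starter C1q, were counted in all 78 cells, at 3563 and 3732 CPM against 6084 and 7021 CPM in the other macrophages. Among macrophage markers that the rule did not use, the signalling adaptor Tyrobp was at 1391 against 1309 CPM (ratio 1.06, 0.920 to 1.23), Fcer1g at 7461 against 2485 CPM, Aif1 at 2124 against 864 CPM, and Spi1, the gene of PU.1, at 1039 against 430 CPM. Other genes of macrophages were lower: Csf1r at 313 against 3374 CPM, the lysosomal marker Cd68 at 282 against 2153 and Lyz2 (lysozyme) at 2694 against 12495. A Csf1r count was found in 65.4% of the 78 cells, and in 33.3% after each cell was thinned to 2000 counts, against 97.6% of the other macrophages and 3.50% of cells rich in Leydig genes, a background for free RNA. Median depths were 5450, 4578.5 and 7035 counts in these 3 kinds of cells.

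Of 5083 genes with 20 or more counts over the 120 macrophages, 891 (17.5%) were at least 2-fold higher in the 78 cells and 836 (16.4%) at least 2-fold lower, 34% together, with a median log2 ratio of -0.034 over all of them (0.5 added to each count). At 8-fold the numbers were 125 and 172. Counts of higher and lower list members here and below stand beside these shares of 17.5% and 16.4% over all genes. The macrophage core list of 25 genes had 9 higher and 9 lower members, with a median log2 ratio of -0.16. Without the genes of the rule it had 8 higher and 7 lower of 20 and a median of 0.32.

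Slc13a3, a sodium-coupled dicarboxylate transporter on chromosome 2 (165405028 to 165473230, minus strand), had the most counts among the 15 genes chosen by their ratio. It reached 0, 16 and 86 counts per cell (lowest, median, highest) in the 78 cells, and 3 counts in all in 2 of the other 42. Its level was 3351 CPM (3182 to 3525) against 14.6 CPM, a ratio of 229 (78.1 to 1110.4). Of its 1684 counts in the whole 2-month table, 1486 (88.2%) came from these 78 cells. It was counted in 85.9% of them, 82.1% when thinned, against 2.71% and 1.05% of cells rich in Leydig genes.

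Ndrg1, a stress-responsive gene also linked to iron and oxygen supply, reached 0, 6 and 36 counts per cell against 1 count in all in the others (1308 against 4.88 CPM, ratio 268, 47.9 to 10597). Another 13 genes had no count in the other macrophages, and their fold is given as a lower bound against 3 counts over that group. Nrxn2, a synaptic adhesion molecule, was at least 28.5-fold higher (417 CPM) and counted in 80.8% of the 78 cells. The semaphorin gene Sema7a (309 CPM) was at least 21.1-fold and the GTPase regulator Arhgap4 (291 CPM) at least 19.9-fold higher. The formyl peptide receptors Fpr2 and Fpr1, which sense bacterial and mitochondrial peptides, reached 185 and 156 CPM, at least 12.6-fold and 10.6-fold higher. The rest were Rasgrf1 (185 CPM), Pim2 (180.4), Trerf1 (151), Avil (147), Bcl2a1a (140), Dusp2 (131), Glipr1 (122) and Traf3ip3 (117), with bounds of 8.0 to 12.6. Bcl2a1a has near-identical copies, between which the counting could split reads.

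The 10 genes at the other end were mostly endocytic receptors and partners of the resident macrophage. F13a1, a coagulation factor subunit made by tissue macrophages, had 0, 0 and 9 counts per cell in the 78 cells and 0, 12 and 27 in the others (45.1 against 2607 CPM, 57.8-fold lower, 37.1 to 95.4). The folate receptor gene Folr2 was at 20.3 against 1440.4 CPM (71.0-fold lower, 36.9 to 157), and the haptoglobin-haemoglobin receptor gene Cd163 at 9.02 against 547. The lectin genes Clec10a and Clec4n and the apoptotic cell receptor gene Axl had 1, 2 and 1 counts in the 78 cells together, against 116, 149 and 96 in the 42. Iigp1, an interferon-induced GTPase, had 0 against 64 counts, at least 46.2-fold lower. Pla2g2d and Cd33 had 2 and 2 against 62 and 61 counts.

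The 15 and 10 genes were picked by their ratio between these same cells, so a split by their counts is largely built in and is no check of the groups. Cell by cell, 76 of the 78 held more counts of the 15 higher than of the 10 lower genes, and all 42 other macrophages held more of the lower ones. The 15 genes summed to 0, 38 and 147 counts (lowest, median, highest) in the 78 cells and to 0, 0 and 3 in the others, and the 10 lower genes to 0, 0 and 18 against 4, 37.5 and 65. Both exceptions were cells of the small margins above, with 15 against 13 and 10 against 5 counts of the rule's genes, and had 0 and 1 counts of the higher against 7 and 18 of the lower genes. With these 2 cells left out, a choice made after their values were seen, 889 genes were higher and 848 lower.

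**Figure D2:**
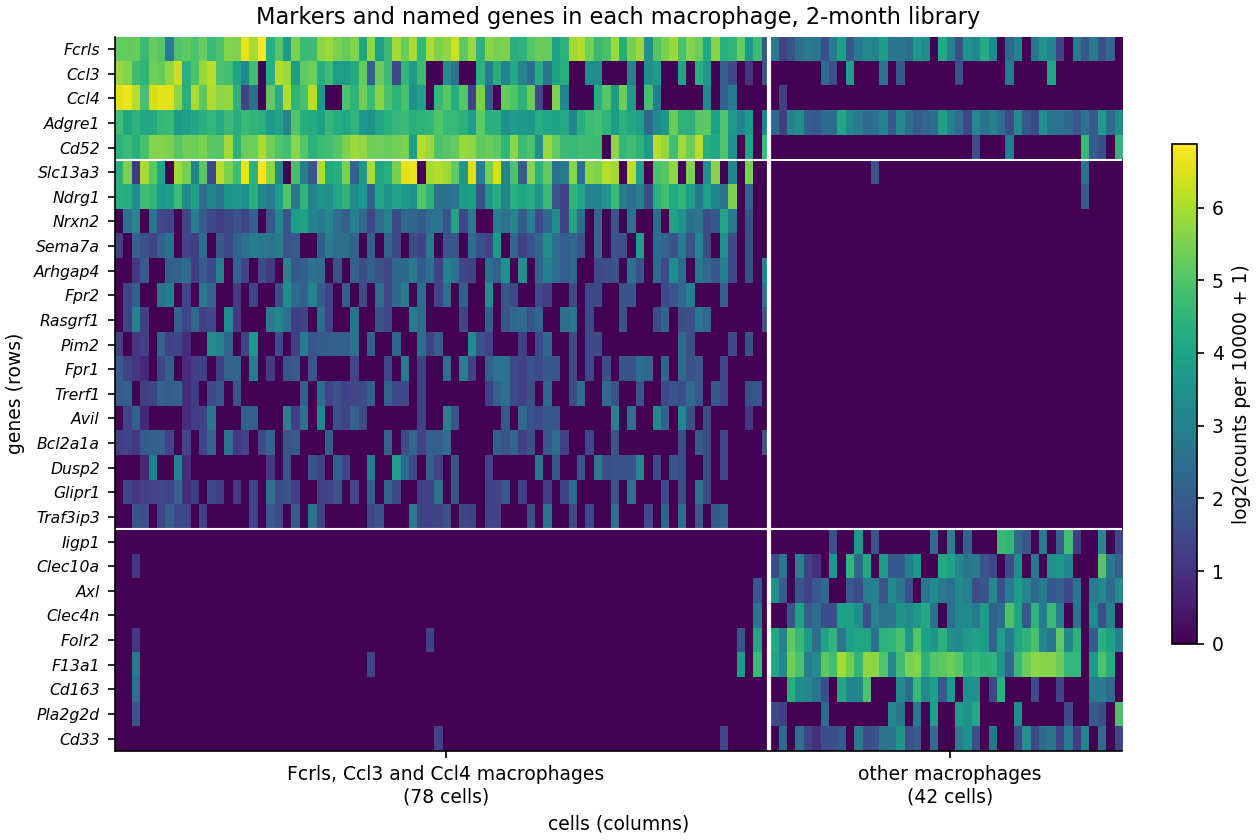
Each column is 1 of the 120 macrophages of the 2-month library and each row a gene (5 markers, 15 higher and 9 of the 10 lower genes from top to bottom); colour gives log2(counts per 10000 + 1). The 78 cells are ordered by falling summed Fcrls, Ccl3 and Ccl4 counts, and the 42 other macrophages follow on the right. The 2 of the 78 cells with more counts of the lower than of the higher genes lie near the right end of their block. The higher and lower genes were picked by their ratio between these same cells.

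Among the chemokine genes, high Ccl3 and Ccl4 did not extend to the class. Of 13 tested genes other than these 2, 1 was 2-fold higher and 9 lower, with a median log2 ratio of -3.38. The exception, Cxcl2, a neutrophil attractant, was at 104 against 39.1 CPM. Ccl8 was at 101 against 3003 CPM and Cxcl9, an interferon-induced ligand of CXCR3, at 0 against 1133 CPM, the latter counted in 9.52% of the other macrophages with 132 of its 232 counts in 1 cell. Ccl2 was at 528 against 879 CPM and Pf4 at 65.4 against 1445. In the list of chemoattractant receptors, 3 of 6 tested genes were higher (Fpr1, Fpr2 and the decoy receptor Ccrl2, 94.7 against 14.6 CPM, which was named after its value was seen) and 2 lower, Cx3cr1 (126 against 1011 CPM) and C5ar1 (11.3 against 190). The median of this list was 1.44 and turned to -0.061 when cells were thinned to 2000 counts. It was 0.037 with the macrophage limit at 1%.

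Cytokine genes gave 3 higher and 3 lower of 15, with a median of -0.39. This is close to the shares over all 5083 genes, 17.5% higher and 16.4% lower, so the counts do not mark out the list. Il10, an anti-inflammatory cytokine, had 0, 3.5 and 35 counts per cell against 0, 0 and 7 (999 against 63.5 CPM, ratio 15.7, 9.11 to 29.8), and Tnf was at 746 against 308 CPM (ratio 2.43, 1.85 to 3.23). Ifngr2, a chain of the interferon-gamma receptor, was at 185 against 73.2 CPM, while Csf2rb was at 29.3 against 176. The NF-kB feedback list had 8 higher and 2 lower of 22 genes and a median of 0.38, with Rel at 165 against 14.6, Tnip1 at 205 against 29.3, Bcl2a1b at 192 against 24.4 and Icam1 at 352 against 117 CPM. Its abundant members were closer, Zfp36 at 3826 against 4087 and Nfkbiz at 1272 against 942 CPM, and Socs3 was lower at 36.1 against 347 CPM.

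Of 24 tested immediate early genes, which tissue dissociation also induces, 4 were higher and 5 lower, with a median of 0.27. This is close to the shares over all genes, 17.5% higher and 16.4% lower. Klf6 was at 5292 against 2705, Jun at 4275 against 2925, Atf3 at 2882 against 1362 and Fos at 2451 against 3857 CPM. Dusp2 and Egr3 (210 against 9.77 CPM) were furthest from equality. The part of dissociation in the levels of Ccl3, Ccl4 and Tnf was not tested.

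The adhesion and motility list held the most higher members, 13 of 26 against 2 lower, with a median of 1.03. Itgal, the alpha chain of the integrin LFA-1, had 0, 8 and 22 counts per cell against 0, 0 and 4 (1375 against 34.2 CPM, ratio 40.2, 19.4 to 101). Rac2, a GTPase of blood cells, had 0, 18 and 50 against 0, 1 and 5 (3071 against 283 CPM, ratio 10.8, 8.34 to 14.4). The actin regulators Lcp1 (2016 against 947), Coro1a (1125 against 474), Arhgdib (1301 against 483) and Hcls1 (832 against 195) and the integrin genes Itgam (634 against 166) and Itgb2 (728 against 347 CPM) were 2.10-fold to 4.26-fold higher. The costimulatory Cd86 was lower, at 11.3 against 103 CPM.

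Receptors for antibody and debris divided, with 4 Fc receptor genes higher and 4 lower of 8 and a median of -0.71. Without Fcrls, which the rule used, it was 3 higher and 4 lower of 7 with a median of -2.57. Besides Fcrls, the higher ones were the shared gamma chain Fcer1g (10, 39 and 147 counts per cell against 4, 12 and 25), Fcgr4 (156 against 68.4 CPM) and Fcrl5 (74.4 against 0 CPM, named after its value was seen). Fcgr3, Fcgr1, Fcgr2b and Fcgrt were lower, at 38.3 against 815, 9.02 against 166, 101 against 605 and 51.9 against 615 CPM. The phagocytic and lectin receptor list had 7 higher and 11 lower of 24, with a median of -0.58, where over all genes 17.5% were higher and 16.4% lower. Higher were Clec4a1 (1303 against 400.4), Clec12a (882 against 254), Clec4a2 (812 against 288) and the inhibitory Siglece (794 against 83.0 CPM). Marco, a scavenger receptor, and Cd5l, a secreted macrophage protein, were at 151 against 19.5 and 108 against 4.88 CPM, but each was counted in only 15.4% of the 78 cells. Lower were Timd4 (0.00 against 166), Stab1 (42.8 against 1035), Msr1 (9.02 against 371) and Cd36 (20.3 against 439 CPM).

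Genes of the resident scavenger programme gave 17 lower and 0 higher of the 18 tested, with a median of -4.80 (Mrc1, used by the rule, is among them; -4.56 without it). The median was -6.30 without the 2 cells like the other macrophages. Selenop, which exports selenium, had 0, 6 and 52 counts per cell against 15, 64 and 164 (1578 against 14873 CPM). Cbr2 was at 90.2 against 3374 and Dab2 at 54.1 against 1938 CPM, while Maf, a factor of resident macrophages, was at 1177 against 1240.2 CPM. MHC class II genes were lower for all 6 tested, with a median of -4.74, but H2-Aa and Cd74 among them were used by the rule. Without these 2, all 4 were lower with a median of -4.43, from H2-Ab1 (47.4 against 1411 CPM) to H2-DMb1 (27.1 against 142). The rule chose cells low in H2-Aa and Cd74, so the direction of this list is no independent check. In the other macrophages the list summed to 7226 CPM, with a median per cell of 819 CPM. Their highest cell was at 107823 CPM, so 1 cell weighs heavily on the summed levels. Of the 33 H2-Aa and 35 Cd74 counts in the 78 cells, 31 and 30 came from the 1 cell with 65 opposing counts, and the MHC class II median was -8.23 where the rule asked for one sum at least 2 times the other plus 1, which left that cell out. MHC class I and peptide loading genes gave 8 lower and 0 higher of 16 (median -1.07), with H2-D1 at 1132 against 4175, H2-K1 at 566 against 2583 and B2m at 3407 against 5371 CPM. Members of the H2 families resemble each other, so reads may be split among them. The interferon response list gave 12 lower and 0 higher of 14, with a median of -3.19, and Gbp2 was at 13.5 against 591 and Bst2 at 78.9 against 420 CPM.

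The other macrophages were mixed in MHC class II, with 10 or more counts of H2-Aa and Cd74 in 14 of 42 (33.3%, 19.6 to 49.5%), and all 42 had Mrc1. Lysosomal genes were lower in 18 and higher in 0 of 29 (median -1.20), among them Ctsb (1109 against 5674) and Grn (1105 against 3950.1 CPM), while Laptm5 was at 4201 against 2607 and Ctss at 2492 against 2778 CPM. Apoe, the lipid carrier abundant in many macrophages, had 0, 0 and 91 counts per cell against 19, 70 and 100 (771 against 13481 CPM). Among transcription factors, 4 were higher and 4 lower of 16 (median -0.20): Batf3 (295 against 14.6), Ikzf1 (185 against 43.9), Id2 (462 against 181) and Spi1 were higher, and among the lower were Cebpa (60.9 against 225), Mef2c (51.9 against 190) and Irf8 (108 against 239 CPM). The shares over all 5083 genes were 17.5% higher and 16.4% lower. Of 11 tested genes of the complement and regulator list beyond the rule, 5 were lower (among them C4b, C5ar1, C2 and Cr1l) and 4 higher (Itgam, Itgb2, Vsir and Cd55). Itgam, Itgb2 and Vsir are also members of the adhesion list, and not all members of this list are complement components.

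**Figure D3:**
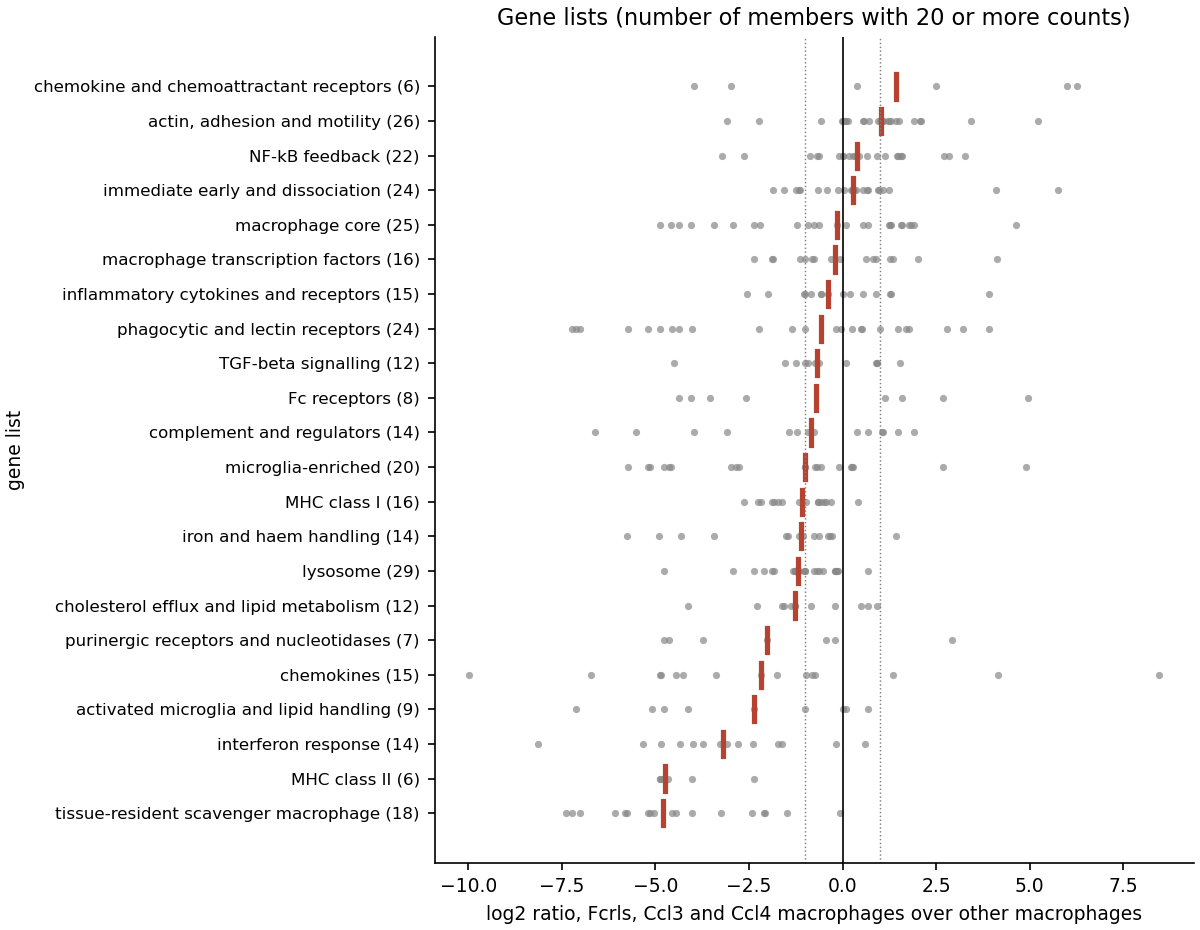
Log2 ratio of the 78 cells over the 42 other macrophages (horizontal axis, 0.5 added to each count) for the tested members of each gene list, with grey points for genes, red bars for list medians and dotted lines at 2-fold. The medians run from 1.44 for chemoattractant receptors to -4.80 for the resident scavenger list.

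Since Fcrls is known from microglia, microglial genes were set beside it. Of 20 tested genes of this list, 2 were higher, Fcrls and Tmem119 (32 against 0 counts, at least 4.93-fold, named after its value was seen), and 10 lower, with a median of -1.0. The microglial factor gene Sall1 and the receptor gene Gpr34 had 0 counts in the 78 cells, P2ry12 was at 13.5 against 361 CPM and Cx3cr1 as above. Transcripts of oligodendrocytes, astrocytes and neurons summed to 87.9, 6.76 and 9.02 CPM in the 78 cells. The list of activated microglia gave 6 lower and 0 higher of 9, with Cd63 at 36.1 against 1006 CPM and Lpl, a lipase, at 1522 against 942 CPM.

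Markers of other blood cells were near 0 with exceptions. The T cell list summed to 18 CPM and natural killer and erythroid lists to 0 CPM. The monocyte list summed to 532 against 454 CPM, most of it from Nr4a1 (492 against 205 CPM), which is also an immediate early gene, while 6 of its 11 genes in the table, Ly6c2 and Ccr2 among them, were at 0. The neutrophil list summed to 124 against 249 CPM. The B cell list summed to 888 against 425 CPM, nearly all of it from Ighm (755 against 361 CPM) and Cd79b (124 against 14.6), while 8 of its 11 genes were at 0. Of the dendritic cell list, 8 of 11 genes were at 0, and Batf3 and Fscn1 (129 against 19.5 CPM) were higher. Pecam1, an adhesion gene of endothelium and leukocytes, was at 151 against 29.3 CPM. The part of these cell types in the results was not tested.

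Transcripts of Leydig, germ, Sertoli and fibroblast lists had lower sums in the 78 cells than in the others. Those of peritubular myoid and endothelial lists had higher sums, but only 1 gene of each had enough counts to be tested. Leydig genes summed to 431 against 2270.5 CPM, with medians per cell of 356 and 437. The highest of the other macrophages was at 20776 CPM, and the median log2 ratio of the list was -2.82, and -0.19 with the limit on Leydig genes at 0.5%. Elongating spermatid genes summed to 1292 against 5493 CPM, with medians of 824 and 1750. Fibroblast genes summed to 273 against 1255 CPM, Sertoli genes to 69.9 against 293 CPM, peritubular myoid genes to 189 against 53.7 and endothelial genes to 158 against 48.8 CPM. In the 78 cells 6 of 10 peritubular myoid and 7 of 11 endothelial genes were at 0. The tested genes were Tpm2 and Pecam1 (log2 ratios of 3.76 and 2.26), and Pecam1 is also a gene of leukocytes. The part of myoid or endothelial cells in these 2 sums was not tested. In 1 other macrophage, the only one that Scrublet called a doublet, the spermatid genes reached 103786 CPM, and in 1 of the 78 cells 20395 CPM. The median log2 ratio of the spermatid list was -2.09 with all cells, -0.79 without called doublets and -0.52 with the macrophage limit at 0.25%. The depth of the 2 kinds overlapped (3661 to 13673 counts against 3309 to 11167), and so did the number of genes per cell thinned to 2000 counts (medians 1137 and 1180). The macrophage gene share was lower in the 78 cells, with a median of 0.982% against 2.08%, and at a limit of 1% in place of 0.5% the rule kept 38 of the 78. The part of free testis RNA in the contrast was not tested.

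Over the 78 cells, Ccl3 and Ccl4 varied together (Pearson r = 0.59 on log counts per 10000), and the gene most like Fcrls among 3764 compared was Slc13a3 (r = 0.57). Fcrls with Ccl3 and with Ccl4 gave r = -0.28 both times. After Ccl4, the genes most like Ccl3 were Lmo4 (0.56) and Nfkbiz (0.45), and for Ccl4 after Ccl3 they were Tpm3 (0.55) and Cd300ld (0.51). These are correlations over cells of 1 library with sparse counts, given as a description.

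Elsewhere in the 2-month table the 15 higher genes were rare. They summed to 7188 CPM in the 78 cells, 44.1 CPM in the 1144 cells rich in Leydig genes and 27.8 CPM in the 1506 remaining cells. In 57 of the 78 cells they made up 0.5% or more of the counts, and 8 further cells reached that share. All 8 had less than 0.5% of the macrophage genes, less than 1% of the Leydig genes, and more Fcrls, Ccl3 and Ccl4 than H2-Aa, Cd74 and Mrc1. The rule found 90 cells with the macrophage limit at 0.25%.

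In the 24-month library the same rule took 10 of 5812 cells (0.172%, 0.0825 to 0.316%) and left 61 other macrophages, at medians of 2804.5 and 1869 counts per cell. These 10 cells, with 25403 counts in all, had 0 counts of the 15 higher genes and 7007 CPM of the 10 lower genes, against 99.2 CPM of the lower genes in the 78 cells. Their Fcrls was at 590 CPM, Ccl3 at 1299, Ccl4 at 2323, Cd52 at 157 and Csf1r at 2283 CPM. No cell of the 5812 reached 0.5% of the 15 higher genes. Taking 3 cells of the total as the limit that 0 allows, this bounds the share of cells that reach 0.5% in this library, at its lower depth. The bound is 0.0516% of all cells or 4.23% of its 71 macrophages, and says nothing of the spread between mice. It does not bound the share of this kind of cell, since only 57 of the 78 cells reached 0.5% and the 15 genes were picked at 2 months. The other macrophages resembled each other in level across the 2 libraries for several genes, such as F13a1 (2607 and 2318 CPM), Folr2 (1440.4 and 1424) and Mrc1 (1748 and 1866), and lay further apart for Ccl4 (4.88 and 781) and Cd74 (2344 and 5929). With 1 library an age, no difference between the ages was tested.

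**Figure D4:**
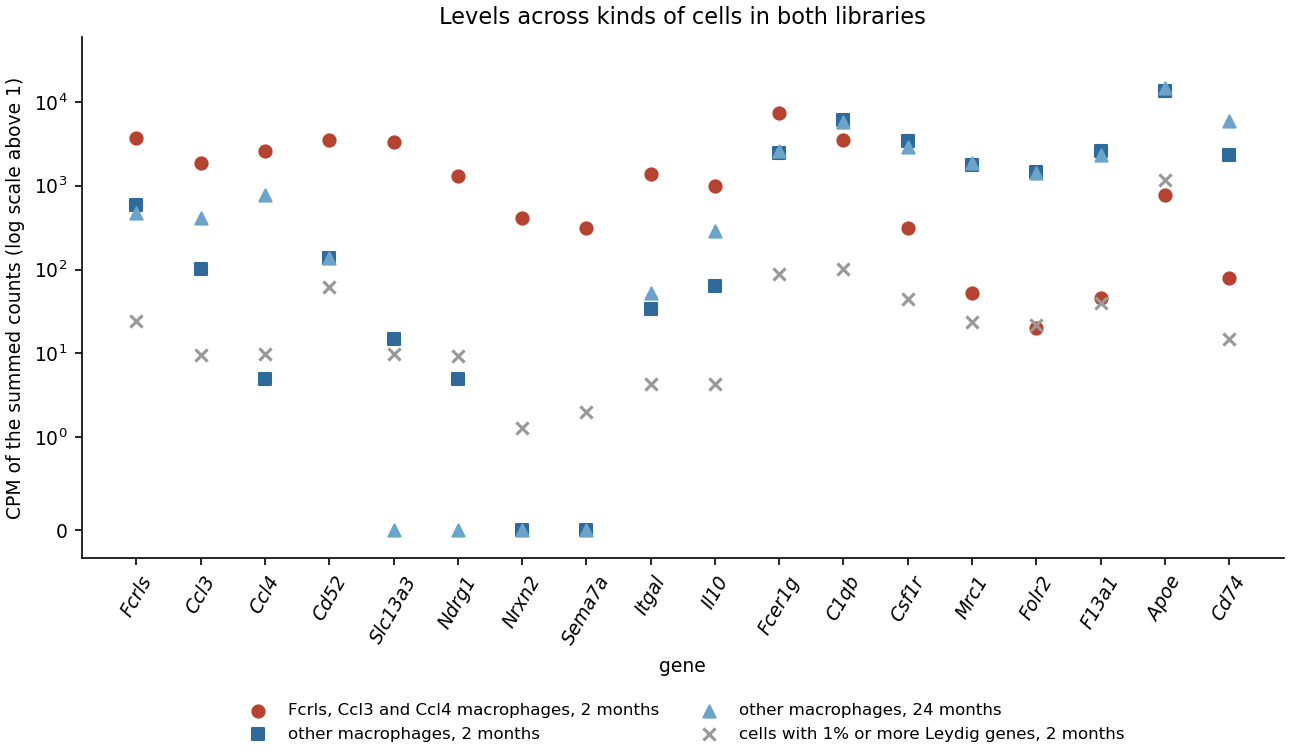
Levels of 18 genes in CPM of the summed counts (logarithmic above 1) in the 78 cells, the other macrophages of both libraries and the 2-month cells rich in Leydig genes. Slc13a3, Ndrg1, Nrxn2 and Sema7a are at or near 0 in both sets of other macrophages, and the 2 sets lie close together for Folr2, F13a1 and Apoe.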

How the data were processed

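For each library the authors deposited a matrix of raw counts, cells by genes, that had not been normalized. Cell Ranger 2.11 and mm10 stand in the submitters' processing notes, and, per the file headers, the 24-month table came from the BD WTA Multiplex Rhapsody Analysis Pipeline 1.7.1 with a STAR 2.5.2b index. The sources differ on the pipeline and leave unsaid whether molecules or reads were counted and whether strand was used. The 2-month table held 2771 cells (53413783 counts, median 16582 per cell, lowest 3215) and for 24 months there were 6823 cells (66390904, median 7488, lowest 186).

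A minimum of 500 counts and 200 genes and a maximum of 25% mitochondrially encoded counts left 2770 and 5812 cells. For each kind of cell the counts were added up and given as CPM with exact Poisson intervals, ratios with exact conditional binomial and shares with Clopper-Pearson intervals, all at 95%. Higher or lower means 2-fold or more with 0.5 added to each count, among genes with 20 or more counts. A fold against a group at 0 was set against 3 counts over that group. The calculations used Python 3.11.15, numpy 2.4.6, scipy 1.17.1 and pandas 2.3.3 and were tested on simulated counts. Doublets were called with Scrublet in scanpy 1.11.5 (38 of 2770 cells, 1.37%, none of them among the 78) and kept. With 1 library per age and cells that are not replicates, no p-value was computed. The spread between mice is unknown.

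The named genes are the 15 highest and 10 lowest by ratio among those with 50 or more counts, 50 or more CPM in the higher kind and a count in 20% or more of its cells, leaving out the genes of the rule, globin, ribosomal and mitochondrially encoded genes and gene models. To these were added list members with 100 or more CPM, markers of other cell types with 50 or more CPM, and the 5 genes most correlated with each of Fcrls, Ccl3 and Ccl4. Members, lists and the naming rule were chosen with earlier results of these data known. Names were matched to GENCODE M21. Alternatives covered the limits of the rule, doublets, thinning, the count minimum, the fold and the scaling (edgeR 4.0.16 TMM). A few genes under these rules are not reported here.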

Additional observations from a re-analysis of the deposited data

Results flagged for a closer look

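Of 236 named genes with 20 or more counts in the 24-month macrophages, 31 were 2-fold or more on the same side in both libraries, and 6 stood on opposite sides of 2-fold. The 236 include genes of the rule, which chose the cells in both libraries and so pushes these genes to the same side. Others were picked by their 2-month ratio, and no such share over all genes was computed, so both numbers are a description. With 1 library an age, the difference was not tested for any of the 6 genes, and the 24-month values rest on 10 cells. The log2 ratio (cells under the rule over other macrophages) was higher at 24 than at 2 months by 7.97 for Lgals3, by 5.20 for S100a4, by 3.80 for Tnp2, by 3.69 for Bst2 and by 2.66 for Ier2, and for Gadd45b the difference was -3.18. Lgals3, a galectin of activated macrophages, had a log2 ratio of -5.08 at 2 months and of 2.89 at 24 months, where 51 counts in the 10 cells stood against 31 in the 61 others. S100a4, a calcium-binding protein, went from -4.17 to 1.03 (15 against 34 counts) and the interferon-induced Bst2 from -2.40 to 1.29 (16 against 30). Ier2 went from -1.25 to 1.40 (19 against 33) and Gadd45b from 1.58 to -1.61 (2 against 34). Tnp2, a spermatid transition protein gene and no macrophage gene, went from -2.57 to 1.23 on 7 against 14 counts.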

How the results depend on the processing

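No paired analysis was possible because each age has 1 library. The rule kept 38 of the 78 cells with the macrophage genes at 1% or more. The 891 higher and 836 lower genes became 498 and 355 with cells thinned to 2000 counts, 536 and 334 with 50 or more counts, 1196 and 1514 with 10 or more counts, and 1439 and 1407 at 1.5-fold. The share of called genes that were higher was 51.6%, 61.6% with 50 or more counts and 44.1% with 10 or more. The median of all genes tested moved to 0.15 with 50 or more counts (2318 genes tested) and to 0.14 with thinning (2197 genes). In the 24-month table the rule took 10 cells, and 3 where the lowest total of the 2-month table was required. The log2 ratio turned positive for Scd2 (0.63), Clu (0.65) and Lcn2 (0.29) with Leydig genes under 0.5%, and for the same genes (0.67, 1.06 and 0.33) under 0.1%, and was 0.99 for Gsn where one sum had to be at least 2 times the other plus 1. The median for chemoattractant receptors was -0.061 with thinning and 0.037 with the macrophage genes at 1% or more, where that for Fc receptors was -2.66. List medians in each setting cover only the genes that still reached the count minimum, so the genes behind a median can differ between settings. The values of 0.037 and -2.66 are those of C3ar1 and Fcgr2b. The cause of the other changes was not tested. Of 371 values for 29 list medians, 347 stayed within their interval, and of 4222 values for 326 genes 3990 did. For a list, the ends of this interval were the medians of the ends of its genes' intervals. The settings were uneven: with the macrophage genes at 1% or more, 8 of 28 list medians and 55 of 324 genes moved out of it, and with TMM scaling 0 did. The log2 ratio of the 15 higher genes stayed between 2.53 (Rasgrf1) and 8.13 (Nrxn2), and of 9 of the 10 lower ones between -9.59 (F13a1) and -4.74 (Cd163). The macrophage limit of 0.25%, the Leydig limit of 0.1% and leaving out 2 cells were chosen after seeing the data. The 443501 counts of the 78 and 204804 of the 42 cells limit what a gene at a few counts can show.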

Other observations

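Genes of iron, lipid and nucleotide handling also differed in level, where over all 5083 genes 17.5% were 2-fold higher and 16.4% lower. Of 14 iron genes, 1 was 2-fold higher and 8 lower (median log2 ratio -1.11). Trf, the transferrin gene, was at 24.8 against 771 CPM, the iron exporter gene Slc40a1 at 11.3 against 244 and the haem-degrading Hmox1 at 293 against 801, while Cp, a ferroxidase gene, was at 638 against 234 CPM. Cholesterol and lipid genes gave 7 lower and 0 higher of 12 (median -1.27), with the efflux pump gene Abca1 at 244 against 718 CPM. Of 7 purinergic genes, 4 were lower and 1 higher (median -2.01), Entpd1 at 15.8 against 220 and Adk at 165 against 19.5 CPM. TGF-beta genes gave 1 higher, Tgif1 (176 against 58.6 CPM), and 4 lower of 12 (median -0.67), among them Tgfbi (29.3 against 688) and Tgfbr2 (156 against 449 CPM).

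Named after their values were seen, 7 more genes were high in the 78 cells: Prkcb (852 against 43.9 CPM), Slamf9 (816 against 19.5), Acp5 (805 against 29.3), Cd72 (787 against 34.2), Tes (679 against 14.6), Asb2 (620.1 against 19.5) and Adgrg6 (372 against 9.77 CPM). Acp5 encodes the acid phosphatase of osteoclasts and activated macrophages, Cd72 a B cell and macrophage lectin, and Prkcb a protein kinase C. Each was counted in 80.8% to 96.2% of the 78 cells. In the 10 cells of the 24-month table Slamf9 had 1 count, Prkcb 3 and the other 5 genes 0.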
